A study of Homo sapiens with 9 samples.

Results

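Of the 9 arrays in the series 6 were compared here: the 3 arrays of T47D cells treated with the progestin ORG2058 against the 3 arrays of cells given ethanol vehicle. T47D is an established human breast cancer cell line with high progesterone receptor levels, and ORG2058 is a synthetic progestin that the labels call progesterone. All cells, controls included, carried the retroviral vector pHUSH-Elf5-shRNA, whose hairpin RNA against ELF5 is made only when doxycycline is added, and were kept under puromycin selection at 2 µg/ml in medium with insulin and tetracycline-free serum. The progestin group received 10 nM ORG2058 for 4 days and no doxycycline. The vehicle group received ethanol only, for a time that the labels do not give, so that a difference in culture time cannot be told apart from the hormone. The remaining 3 arrays come from cells that received doxycycline (0.1 µg/ml) in addition to 10 nM ORG2058, also for 4 days. These arrays enter the estimate of the spread, and their levels are given beside some results. Each array held RNA of cells pooled from 3 wells, and the design text speaks of triplicate independent experiments. No culture or array batch is given, and the p-values reflect how far these arrays spread.

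All 18417 genes with a probe set of their own were described, in 97 families and function groups that together hold 5740 of them. Interferon-induced and cell cycle genes were not grouped and are mentioned only where they fall into another family. Levels are the deposited values with 16 added on the linear scale, as log2, so that a probe set with no signal lies at 4. Fold changes on this scale understate the change of dim genes. Of the 12 luminal marker genes, 12 were measured and lay between 8.93 and 12.98 with vehicle and between 7.62 and 13.17 with progestin. The 4 measured basal or myoepithelial markers lay between 5.74 and 8.04 with vehicle, the 6 fibroblast markers between 4.68 and 8.65, and the 5 measured immune markers between 4.73 and 7.47. The highest of the 4 endothelial markers was CDH5, at 9.12 with vehicle and 9.41 with progestin, and the lowest of them was at 5.68 with vehicle.

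Progesterone and its synthetic relatives act through the progesterone receptor, a ligand-activated transcription factor that binds DNA near its target genes and also represses its own gene. In the breast the hormone drives side branching and the secretory, alveolar differentiation of the luminal epithelium. In breast cancer lines a sustained progestin treatment is known for a first wave of division followed by arrest, with lipid and secretory changes of the cells.

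The genes that check the labels moved as follows. PGR, the receptor itself, was at 11.93, 11.93 and 11.89 on the vehicle arrays and at 9.71, 9.64 and 9.63 on the progestin arrays. This is a 4.77-fold fall without overlap of the groups (limma, log2 change -2.25, SE 0.08, adjusted p = 3.01e-09). ELF5, the ETS factor of the alveolar lineage that the hairpin targets, was at 10.28, 10.23 and 10.07 with vehicle and 11.32, 11.24 and 11.32 with progestin, a 2.14-fold rise (limma adjusted p = 1.59e-06). With doxycycline added, ELF5 was at 10.46, 10.48 and 10.36, between the levels of the other groups.

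Over all probe sets with a gene symbol, 6453 of 21214 changed at an adjusted p of 0.05 in limma (30.4%), 2994 higher (14.1%) and 3459 lower (16.3%). A change of at least 2-fold was found for 897 (4.23%), 437 higher (2.06%) and 460 lower (2.17%). Counted as genes, with 1 probe set each, 5617 of 18417 changed (30.5%), 2644 higher (14.4%) and 2973 lower (16.1%). At least 2-fold were 815 (4.43%), 404 higher (2.19%) and 411 lower (2.23%). The family counts below are to be read against these gene shares. For 42.5% of genes every progestin array lay on 1 side of every vehicle array, and the median change of all genes was 0.02. The arrays measure RNA relative to the other RNA of the sample, so a change of total RNA per cell was not measured. The median standard error of a change was 0.102, so small shifts of abundant genes could pass the test. In the text, "rose" and "fell" mean an adjusted p under 0.05 in this limma fit, and "at least 2-fold" adds a log2 change of at least 1.

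**Figure D1:**
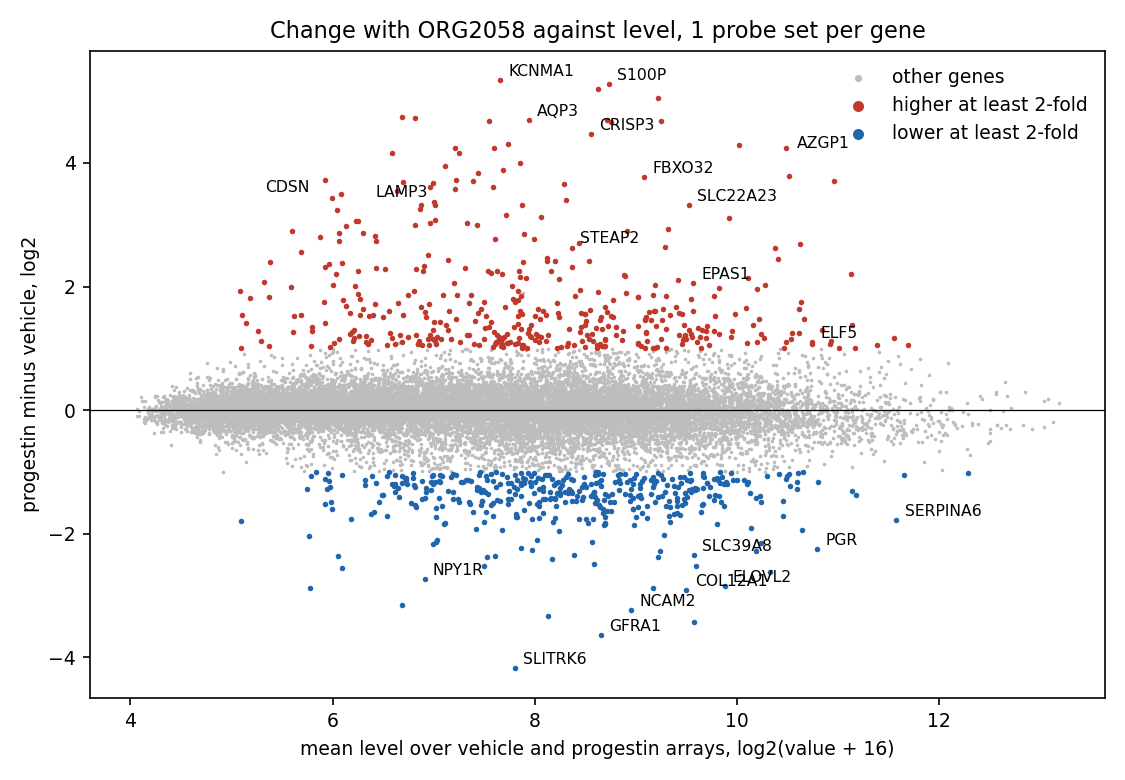
Each point is 1 of 18417 genes; the horizontal axis is its mean level over the 6 arrays as log2(value + 16) and the vertical axis the log2 change, progestin minus vehicle. Red points are the 404 genes that rose at least 2-fold and blue points the 411 that fell at least 2-fold; the highest labelled gene is KCNMA1 at 5.34 and the lowest SLITRK6 at -4.18.

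The 20 genes with the highest changes held 11 interferon-induced genes. The other 9 encode secreted proteins, membrane proteins and enzymes. KCNMA1, a calcium-activated potassium channel, was at 5.22, 5.07 and 4.68 with vehicle and at 10.33, 10.31 and 10.34 with progestin, a 40.5-fold rise (log2 change 5.34, SE 0.12, limma adjusted p = 1.34e-10). S100P, a small calcium-binding protein that is also secreted, went from 6.13, 6.25 and 5.90 to 11.41, 11.37 and 11.33 (38.7-fold). GNMT, a liver-type enzyme that methylates glycine and so lowers the methyl donor S-adenosylmethionine, went from 6.06, 6.06 and 5.95 to 11.21, 11.20 and 11.25 (36.7-fold). For these genes the vehicle arrays varied more than the progestin arrays, and every progestin array lay far above every vehicle array. Secreted proteins followed. CRISP3, a cysteine-rich protein of exocrine secretions, rose 22.2-fold (from 6.32 ± 0.132 to 10.79 ± 0.0578, mean ± SD, n = 3 each). AZGP1, a zinc-binding glycoprotein abundant in apocrine secretion, rose 18.9-fold (from 8.37 ± 0.0795 to 12.60 ± 0.0425). SLPI, a secreted inhibitor of leukocyte proteases, rose 15.9-fold (from 5.85 ± 0.166 to 9.85 ± 0.0504). SGPP2, which dephosphorylates sphingosine 1-phosphate, rose 26.8-fold (from 4.31 ± 0.458 to 9.06 ± 0.111). Its vehicle level lay near the floor of the scale, and its log2 change ran from 3.09 to 10.13 over the settings. AQP3 and SERPINA3 complete the list and are given with their families.

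The 20 genes with the lowest changes included surface receptors, adhesion proteins and regulators of transcription. SLITRK6, a neuronal transmembrane protein with leucine-rich repeats, was at 9.99, 9.96 and 9.73 with vehicle and at 5.83, 5.61 and 5.69 with progestin, an 18.1-fold fall (log2 change -4.18, SE 0.10, limma adjusted p = 2.01e-10). GFRA1, the co-receptor for the growth factor GDNF, fell 12.4-fold, from 10.42, 10.58 and 10.42 to 6.90, 6.77 and 6.85. CXCL12, a chemokine, fell 10.7-fold (from 11.29 ± 0.0952 to 7.86 ± 0.04). HEY2, a repressor downstream of Notch, fell 10.1-fold (from 9.80 ± 0.0816 to 6.47 ± 0.106). On the progestin arrays each of these genes still lay above 5, over the floor of the scale. ELOVL2, which lengthens polyunsaturated fatty acids, fell 7.19-fold (from 11.30 ± 0.111 to 8.45 ± 0.0408), and PEG10, a gene derived from a retrotransposon, fell 6.12-fold (from 11.64 ± 0.0892 to 9.02 ± 0.0473). WT1 and MKX, both transcription factors, fell by 2.52 and 2.37 on the log2 scale. NPNT, an extracellular ligand of integrins, and OLFM1, a secreted olfactomedin protein, fell by 2.41 and 2.49. EDARADD, the adaptor of the ectodysplasin receptor, fell by 2.87, the little described ANKRD7 by 2.87 and CDC20B by 3.16. H3C2, a replication-dependent histone gene, also stood among the 20.

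**Figure D2:**
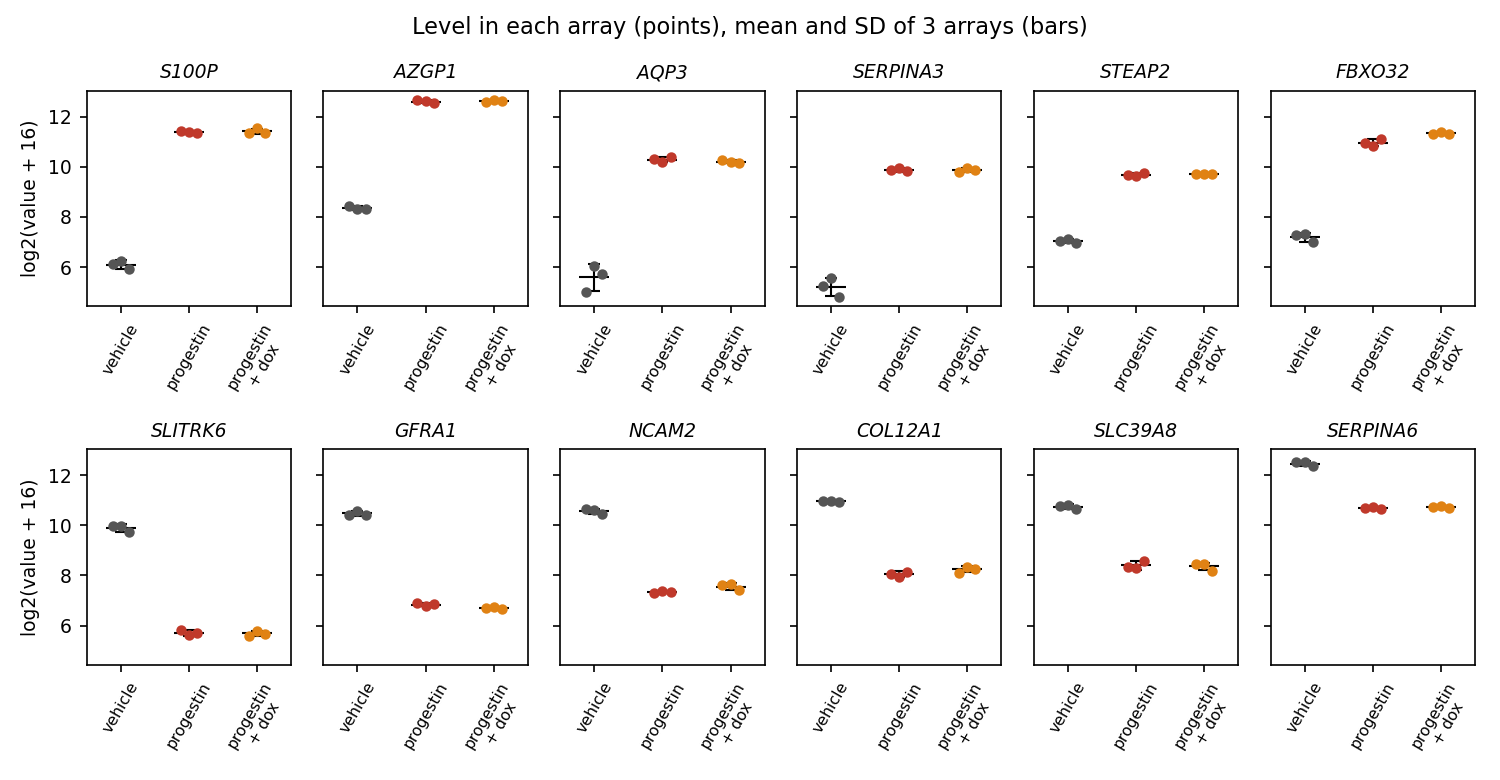
Level of 12 genes as log2(value + 16) on each of the 9 arrays, by group (grey vehicle, red progestin, orange progestin with doxycycline); points are arrays, and the bars give the mean and SD of 3 arrays. The 6 genes of the upper row lie higher on every progestin array than on every vehicle array, and the 6 of the lower row lie lower.

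The families differed in how many members moved and in which direction. Among the families of at least 20 members, lysosomal proteins had the largest share that rose, 49.2%, and splicing factors the largest share that fell, 64.6%. These first places depended on single arrays. Without progestin replicate 1 the lysosomal share was 32.2%, below the 39.3% of cathepsins and cystatins, which also came first without vehicle replicate 1 or 3 or progestin replicate 2 or 3. Families can share members: cathepsins such as CTSA and CTSD also stand among the lysosomal genes, so these shares are not independent. Nucleoporins and karyopherins came first among the falls without any 1 of the vehicle arrays and without progestin replicate 3. At the other end were the olfactory receptors, the odour receptors of the nose. They were mostly dim, with 38 of 338 at a mean level above 6. Of the 338, 6 rose (1.77%) and 7 fell (2.07%). These small counts moved under most settings: between 2 and 45 rose and between 0 and 24 fell. With single arrays left out, between 3 (without vehicle replicate 2 or progestin replicate 1) and 12 (without progestin replicate 3) rose, and 4 fell without progestin replicate 3. Array weights in limma moved 119 of 388 family counts by more than 1.5 times, which is not repeated at each family. Small counts were the least stable: of the 90 counts of 5 or fewer members that rose or fell, 51 moved by more than 1.5 times when some single array was left out, against 21 of the 104 larger counts. Of the 192 counts of 5 or fewer members past 2-fold, 39 moved so.

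**Figure D3:**
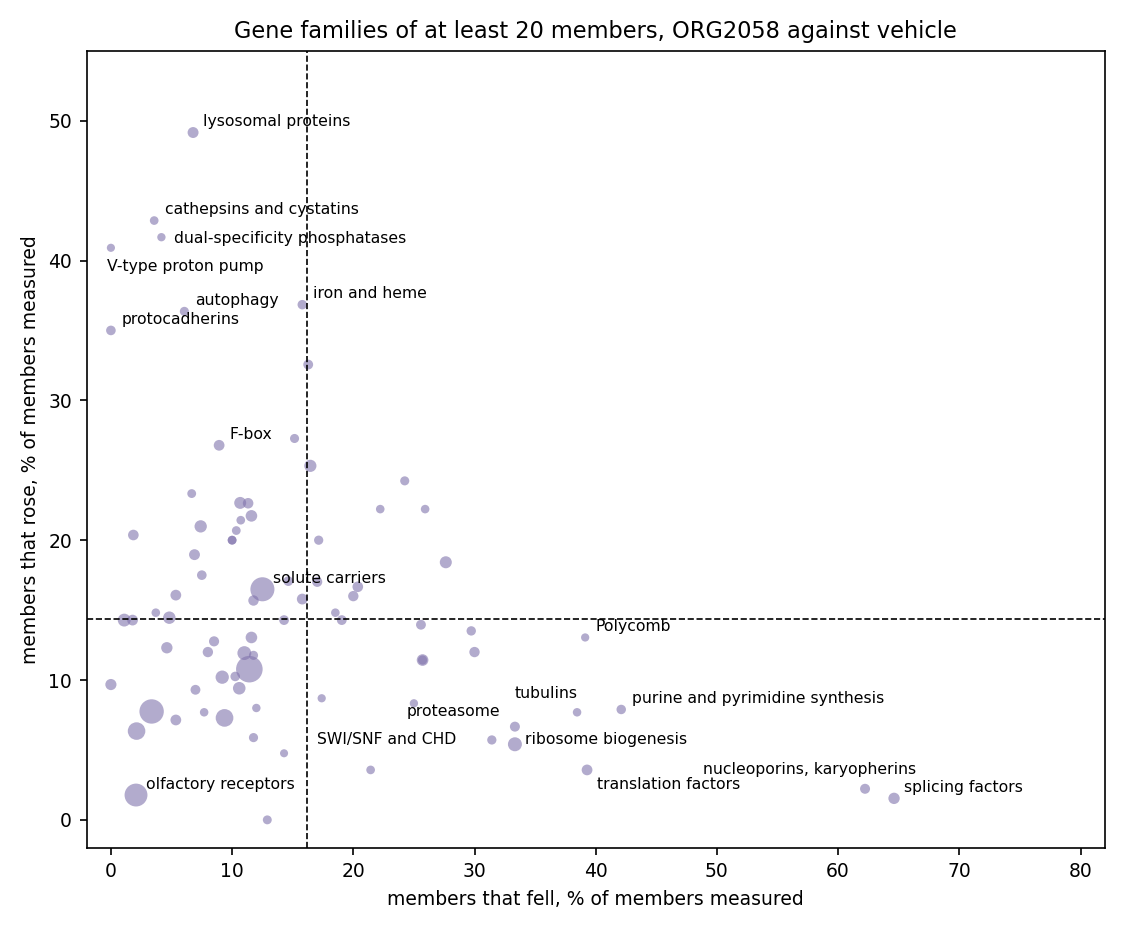
Each point is 1 of 82 families with at least 20 measured members, its area growing with the number of members; the horizontal axis is the percentage that fell and the vertical axis the percentage that rose. The dashed lines give the shares over all 18417 genes, 16.1% fell and 14.4% rose; lysosomal proteins stand highest at 49.2% and splicing factors furthest right at 64.6%.

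Membrane transport changed at both ends. AQP3, the channel for water and glycerol, was at 5.01, 6.06 and 5.72 with vehicle and 10.29, 10.19 and 10.37 with progestin, a 25.8-fold rise (log2 change 4.69, SE 0.20, limma adjusted p = 2.38e-08); it was the only one of 11 aquaporins to rise. The 1 that fell, AQP11 (log2 change -0.33), lost its call without vehicle replicate 2 or 3 or progestin replicate 2, on the deposited scale with nothing added, and in a fit of the 6 arrays alone. Of 376 solute carriers, 62 rose (16.5%) and 47 fell (12.5%), 15 and 3 of them at least 2-fold (3.99% and 0.798%); without vehicle replicate 3, 5 fell at least 2-fold. SLC22A23, an orphan carrier of the organic ion family, went from 7.95, 8.07 and 7.58 to 11.21, 11.18 and 11.14 (9.93-fold). SLC2A14, a glucose transporter, rose (log2 change 2.99, SE 0.26), but its near-identical paralog SLC2A3 can share its signal and changed by 1.18, SE 0.32, with vehicle arrays at 6.96, 6.95 and 8.49. That SLC2A3 call was lost without vehicle replicate 1 or 2. The magnesium carrier SLC41A2 rose (2.25, SE 0.08), as did the intestinal chloride and bicarbonate exchanger SLC26A3 (1.92, SE 0.15), whose vehicle level of 4.12 lay at the floor of the scale, and the mitochondrial glutamate carrier SLC25A18 (1.86, SE 0.11). Carriers that fell at least 2-fold were SLC39A8, which takes up zinc and manganese (10.76, 10.83 and 10.66 against 8.33, 8.28 and 8.59, 5.1-fold), SLC25A13, the mitochondrial aspartate-glutamate exchanger (-1.20, SE 0.08), and the choline transporter SLC44A1 (-1.15, SE 0.08). Carriers of metal ions thus moved both ways.

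Pumps and ABC transporters moved in both directions, in shares near those of all genes (14.4% rose and 16.1% fell). Among 42 ABC transporters 6 rose (14.3%) and 8 fell (19.0%). ABCC8, the sulfonylurea receptor that regulates potassium channels, rose (1.32, SE 0.25), as did its channel partner KCNJ11 from the potassium channels (2.29, SE 0.13), with vehicle arrays of KCNJ11 at 5.58, 5.97 and 5.48 and progestin arrays at 8.02, 7.79 and 8.10. The lipid transporter ABCA5 (1.05, SE 0.12) and ABCC12 (1.01, SE 0.14) rose, and ABCA12, which loads lipid into the lamellar bodies of keratinocytes, fell (-1.56, SE 0.09). ABCC8, ABCA5 and ABCC12 were the 3 that rose at least 2-fold; without vehicle replicate 3 none did. Of 35 P-type pumps 7 rose (20%, against 14.4% of all genes) and 6 fell (17.1%, against 16.1%). ATP13A4, a cation-transporting ATPase, rose from 4.12, 4.01 and 4.31 to 7.17, 7.02 and 6.93, where the vehicle arrays lay at the floor. ATP2B4, a calcium pump of the plasma membrane, fell (-1.17, SE 0.08).

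Potassium channels held 8 of 85 members that rose and 9 that fell. Besides KCNMA1 and KCNJ11, KCNC4, a fast voltage-gated channel, rose (1.86, SE 0.12). KCNK5, a leak channel sensitive to pH, fell 5.18-fold (log2 change -2.37, SE 0.12), and KCNQ5, a voltage-gated channel, fell (-1.58, SE 0.11). Of 30 chloride channels and their regulators 7 rose, with CLIC6, an intracellular chloride channel protein, moving from 9.04 ± 0.14 to 11.18 ± 0.0163 (4.39-fold). GJC3, a connexin, rose (2.51, SE 0.08). Calcium and TRP channels stayed under 2-fold, with a rise of CACNG4, an auxiliary calcium channel subunit (0.82, SE 0.10), and of the epithelial calcium channel TRPV6 (0.68, SE 0.11), and a fall of the low-voltage calcium channel CACNA1H (-0.98, SE 0.10). The 6 of 62 ligand-gated channels that rose included GABRA5 (0.65, SE 0.09) and GABRD (0.46, SE 0.10), both subunits of the GABA-A receptor, and GLRB, a glycine receptor subunit (0.68, SE 0.11), and none of that family fell in limma, also at an unadjusted p under 0.05; 1 fell without progestin replicate 1 or 3.

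Genes of the lysosome and of its acidification rose more often than they fell, mostly by less than 2-fold. Of 59 lysosomal proteins 29 rose (49.2%, against 14.4% of all genes) and 4 fell (6.78%), with a median change of 0.21 against 0.02 for all genes, and 45 of the 59 changes were above 0. Without progestin replicate 1, 19 rose. Of 22 subunits and accessory proteins of the V-type proton pump, which acidifies the lysosome, 9 rose (40.9%) and none fell in limma (1 at an unadjusted p under 0.05), with a median of 0.17; with quantile normalization 14 rose. Of 33 autophagy proteins 12 rose (36.4%) and 2 fell, with a median of 0.18. The medians kept their sign under every setting tried, with ranges of 0.16 to 0.23, 0.13 to 0.22 and 0.15 to 0.25.

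The membrane protein LAMP3 and lysosomal enzymes led this group. GAA, which breaks down glycogen in the lysosome, was at 7.96, 8.05 and 7.72 with vehicle and 8.95, 8.98 and 9.16 with progestin, without overlap (2.17-fold, limma adjusted p = 8.41e-06). The sulfatases ARSA (1.07, SE 0.12), which degrades sulfatide, and ARSG (1.06, SE 0.10) rose by similar amounts. LAMP3, a membrane protein of specialised lysosomes that interferon also induces, rose 12-fold (from 5.42 ± 0.271 to 9.0 ± 0.0658). These 4 were the lysosomal genes past 2-fold; without vehicle replicate 3 there were 2. Among the proton pump subunits, ATP6V0E1 went from 10.48, 10.50 and 10.30 to 11.28, 11.22 and 11.29 (1.78-fold), followed by ATP6V0D1 (0.74, SE 0.10) and ATP6V0E2 (0.54, SE 0.09). Autophagy genes that rose were GABARAPL1, an ATG8 protein of the autophagosome membrane (0.81, SE 0.11), the starting kinase ULK2 (0.69, SE 0.10) and the cargo receptor NBR1 (0.61, SE 0.09). None of the pump and autophagy genes reached 2-fold. Cathepsins and cystatins, a group of mostly lysosomal proteases and of protease inhibitors, showed 12 of 28 that rose (42.9%). The 1 that fell was CTSV (-1.19, SE 0.10), a protease of thymus and skin. Some cathepsins, such as CTSA and CTSD, are also counted among the lysosomal genes.

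For these genes, the promoters were searched for short motifs in the 250 bases before the transcription start, on both strands, in RefSeq sequences of GRCh38.p14. A promoter was given for 14239 of the 18417 genes. The E-box CACGTG is bound by MYC and clock factors and by the TFE factors that control lysosomal genes. It was present in 22 of 92 lysosomal, proton pump and autophagy genes (23.9%) against 1395 of all 14239 genes (9.80%). Within the group it was found in 10 of 40 that rose (25%) and in 12 of 52 that did not (23.1%), so its presence did not separate them. The stretches shown are those of the named genes GAA, ATP6V0D1 and ATP6V0E2 and of the cathepsins CTSA (log2 change 0.40) and CTSD (0.30), which also rose; capitals mark the E-box.
GAA (chr17:80101505-80101580, plus strand): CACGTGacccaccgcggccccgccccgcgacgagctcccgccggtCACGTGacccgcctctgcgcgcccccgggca
ATP6V0D1 (chr16:67481171-67481256, minus strand): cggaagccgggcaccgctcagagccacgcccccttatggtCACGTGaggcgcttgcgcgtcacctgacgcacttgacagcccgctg
ATP6V0E2 (chr7:149872856-149872941, plus strand): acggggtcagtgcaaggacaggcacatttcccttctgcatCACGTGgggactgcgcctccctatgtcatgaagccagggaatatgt
CTSA (chr20:45891270-45891334, plus strand): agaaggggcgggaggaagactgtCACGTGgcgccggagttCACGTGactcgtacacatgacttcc
CTSD (chr11:1763929-1764014, minus strand): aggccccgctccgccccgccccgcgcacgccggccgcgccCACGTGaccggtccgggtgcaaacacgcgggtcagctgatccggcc
GAA and CTSA carry a pair of E-boxes in the stretch shown, and the others carry 1. The other lysosomal and pump genes that rose with a match were SUMF1 (0.54, SE 0.07), ATP6V1G1 (0.42, SE 0.08), GNPTG (0.30, SE 0.08), NAGPA (0.27, SE 0.08) and CLN3 (0.26, SE 0.09), chosen after their values were seen. The CLN3 call was lost in 11 settings, among them each single array left out, the fit of the 6 arrays alone and the replicate block (limma, highest adjusted p 0.114). The NAGPA call was lost in 6, among them the replicate block and the fits without replicate 1 or 3 of either group (limma, highest adjusted p 0.102). The GNPTG call was lost without progestin replicate 1.

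Secretory pathway genes also rose more often than they fell, but in shares nearer to the 14.4% of all genes. Of 81 proteins of the SEC, coat and tether complexes 17 rose (21%) and 6 fell, none of them 2-fold. The count that rose was 30 with quantile normalization, 27 with a variance trend and 13 to 16 with single arrays left out. The count that fell dropped to between 1 and 3 without vehicle replicate 1 or 2 or progestin replicate 1 or 2. SEC11C, a subunit of the signal peptidase (0.60, SE 0.09), SAR1B, which starts COPII vesicles (0.59, SE 0.10), and SEC62 of the translocon (0.53, SE 0.08) had the largest rises. Of 53 SNAREs and synaptotagmins 12 rose (22.6%) and 6 fell, and between 8 and 13 rose with single arrays left out. Those that rose included SYT8 (0.82, SE 0.09), VAMP8 (0.77, SE 0.08), a vesicle SNARE of exocrine secretion, and VAMP2 (0.57, SE 0.07). Of 69 Rab GTPases 15 rose (21.7%) and 8 fell, and between 10 and 15 rose with single arrays left out. The only Rab gene past 2-fold was RAB31, which fell (-1.05, SE 0.09). Of the 29 TBC proteins, which switch Rabs off, TBC1D2 rose (1.07, SE 0.12).

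Secreted protease inhibitors and coagulation proteins were among the largest changes. SERPINA3, an acute-phase inhibitor of chymotrypsin-like proteases, was at 5.24, 5.55 and 4.82 with vehicle and 9.86, 9.96 and 9.82 with progestin (25.6-fold, limma adjusted p = 2.03e-09). SERPINA5, the protein C inhibitor, rose 8.01-fold (from 5.93 ± 0.37 to 8.93 ± 0.0905). In the other direction SERPINA6, the corticosteroid-binding globulin that also binds progesterone, fell from 12.52, 12.53 and 12.35 to 10.69, 10.72 and 10.66 (3.43-fold), and SERPINF1, an inhibitor of blood vessel growth, fell (-1.06, SE 0.11). Serpins of clade A thus moved both ways. Over all 30 serpins 6 rose and 3 fell. Of 54 complement and coagulation genes 11 rose (20.4%), 4 at least 2-fold, and 1 fell. F3, the tissue factor that starts coagulation, rose 12.9-fold (from 4.85 ± 0.207 to 8.54 ± 0.0486). Complement factor CFB (1.55, SE 0.10) rose, as did CD59 (1.47, SE 0.09) and CD55 (1.46, SE 0.09), surface proteins that protect a cell from complement.

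Other secreted and extracellular enzymes followed no single direction. Of 58 trypsin-like proteases and Kunitz inhibitors 11 rose, with KLK10 (1.80, SE 0.16) and TMPRSS11E (1.20, SE 0.12), both serine proteases of epithelia, past 2-fold, and TMPRSS3 fell (-1.33, SE 0.10). ADAMTS8, a secreted metalloprotease, went from 5.13, 5.23 and 5.12 to 8.86, 8.78 and 8.85 (12.7-fold), while ADAMTS4, which cleaves aggrecan, went from 8.26, 7.96 and 7.99 to 6.05, 5.77 and 5.91, a 4.47-fold fall. Of the 42 genes of that family 6 rose and 6 fell. The matrix metalloproteases and their inhibitors had no member past 2-fold; TIMP2, an inhibitor, fell (-0.63, SE 0.08), and MMP3 rose (0.54, SE 0.09). COL12A1, a collagen on the surface of fibrils, fell 7.51-fold, from 10.96, 10.96 and 10.93 to 8.06, 7.92 and 8.15. The sulfatase SULF1, which trims heparan sulfate on the cell surface, fell (-1.61, SE 0.08).

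Surface glycosylation enzymes and lectins changed as well. Of 19 enzymes that start O-linked GalNAc glycans 5 rose and 2 fell, with GALNT6 (1.17, SE 0.08) past 2-fold and GALNT7 (1.0, SE 0.09) at that limit; 3 rose without vehicle replicate 3 and without progestin replicate 2. GCNT4, which branches these glycans, rose from a vehicle level near the floor, 4.27, 4.05 and 4.25, to 6.76, 6.47 and 6.50. B3GNT2, which extends lactosamine chains, rose (1.0, SE 0.08), and MGAT4A, which branches N-glycans, fell (-1.58, SE 0.09). Of 12 galectins and their binding protein 5 rose and 2 fell, and 3 rose without the dimmest 25% of probe sets. LGALS3 moved from 9.13 ± 0.137 to 10.41 ± 0.0368 (2.43-fold), and the binding protein LGALS3BP (1.52, SE 0.09) and LGALS9 (1.81, SE 0.24), both also known to respond to interferon, rose too. CEACAM6, a carcinoembryonic adhesion glycoprotein, rose 4.9-fold (from 5.29 ± 0.0502 to 7.58 ± 0.133). Of 12 annexins 4 rose and 3 fell. ANXA1 (2.25, SE 0.08), an anti-inflammatory lipid-binding protein, and ANXA3 (1.61, SE 0.11) rose past 2-fold. CDSN, which holds cornified skin cells together, rose from 4.46, 4.36 and 4.01, near the floor of the scale, to 7.69, 7.5 and 7.94. Its log2 change ran from 1.93 to 7.20 over the settings. LY6E, a membrane-anchored protein of the LY6 group, fell (-1.0, SE 0.10).

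Proteins of neural adhesion and axon guidance held several of the largest falls. Of 57 members 9 rose and 9 fell, with 4 falls and 1 rise past 2-fold. After SLITRK6 came NCAM2, a homophilic adhesion protein (10.64, 10.61 and 10.45 against 7.28, 7.37 and 7.36, 9.39-fold), SLITRK4 (-1.73, SE 0.14) and ROBO1, the receptor for SLIT ligands (-1.55, SE 0.09). NTN4, a laminin-related netrin, rose (1.63, SE 0.16). Of 30 semaphorins and their receptors 6 rose and 3 fell, 5 without vehicle replicate 3 and between 2 and 7 under the other settings. PLXNA1, a plexin receptor, rose (1.33, SE 0.11), and the ligands SEMA6A (-1.49, SE 0.09) and SEMA3C (-1.14, SE 0.09) fell. EPHA4, a receptor for ephrins, fell 4.27-fold (log2 change -2.09, SE 0.09). Protocadherins, adhesion proteins best known from neurons, rose more often than they fell: 14 of 40 rose (35.0%) and none fell in limma (1 at an unadjusted p under 0.05). Without vehicle replicate 3, 2 fell, and 1 fell without progestin replicate 1, with the replicate block, with quantile normalization, with 64 added, with a variance trend and without the dimmest 25% of probe sets. Of the changes 32 of 40 were above 0, and the median was 0.21, with a range of 0.15 to 0.29 over the settings. Their leading member PCDH1 was at 8.0, 8.15 and 7.91 with vehicle and 9.46, 9.42 and 9.72 with progestin (2.85-fold), and it was the only one past 2-fold.

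Receptors and their ligands changed one by one. VIPR1, the receptor for vasoactive intestinal peptide, rose 3.6-fold (from 8.37 ± 0.0764 to 10.22 ± 0.13), and NPY1R, the neuropeptide Y receptor that estrogen is known to induce, fell 6.64-fold (from 8.28 ± 0.22 to 5.54 ± 0.107). The family of receptors for amines, lipids, nucleotides and peptides held 13 of 109 that rose, 8 without progestin replicate 1, and 12 that fell. GPRC5A, an orphan receptor of epithelia, rose 4.38-fold (from 6.85 ± 0.143 to 8.98 ± 0.0509), and the orphan GPR63 fell (-1.06, SE 0.11). Among 56 chemokines and their receptors 9 rose and 3 fell. CCL5 rose (1.29, SE 0.13), and CXCR4, the receptor of CXCL12, fell (-1.11, SE 0.11), as did its ligand. Over the settings the change of CXCR4 ran from -1.54 to -0.61. The count that fell at least 2-fold dropped from 2 to 1 with 64 added, without the dimmest 25% of probe sets and without progestin replicate 3. Of 83 interleukins and receptors 12 rose and 4 fell, with IL20RA, a subunit of the receptor for IL-20, higher (1.64, SE 0.11) and IL17RB, a receptor for IL-25, lower (-2.53, SE 0.14). No member of the fibroblast growth factor family rose in limma, also at an unadjusted p under 0.05, but 1 or 2 rose when vehicle replicate 1 or 3 or progestin replicate 2 or 3 was left out, and FGFR3 was the member that fell past 2-fold (-1.53, SE 0.10).

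Signalling enzymes moved mostly by less than 2-fold. Of 24 dual-specificity phosphatases, which remove phosphate from MAP kinases, 10 rose (41.7%) and 1 fell, with a median of 0.14. DUSP1 was at 7.35, 7.36 and 7.10 with vehicle and 8.25, 8.29 and 8.46 with progestin (2.1-fold), and DUSP6, specific for ERK, was the one that fell (-1.01, SE 0.16). In the MAP kinase cascade 6 of 43 rose and 11 fell; MAP3K1 rose (1.24, SE 0.08) and MAP3K20, a stress-activated kinase, fell (-1.48, SE 0.11). INPP4B, a phosphoinositide phosphatase that restrains AKT signalling, fell (-1.27, SE 0.08), and MTMR9, an inactive relative of such phosphatases, rose (1.67, SE 0.10). PDE4D, which degrades cAMP, fell (-1.10, SE 0.07). PRKCD, a protein kinase C, rose (0.91, SE 0.08). PLA2G10, a secreted phospholipase, rose (1.89, SE 0.24), PLCG1, a phospholipase below growth factor receptors, fell (-1.05, SE 0.08), and the receptor phosphatase PTPRU rose (1.23, SE 0.09).

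Among metabolic enzymes, cytochromes P450 changed less often than the 30.5% of all genes: of 47, 6 rose (12.8%) and 4 fell (8.51%), 2 without progestin replicate 1. A mean level above 6 was found for 28 of the 47, against 13902 of all 18417 genes. CYP27A1, the mitochondrial sterol 27-hydroxylase, rose 10.3-fold, from 5.47, 5.35 and 5.12 to 8.65, 8.63 and 8.78. CYP4Z1, a breast-enriched cytochrome P450, rose 4.89-fold (from 5.37 ± 0.0403 to 7.66 ± 0.0684), as did its transcribed pseudogene CYP4Z2P (2.97, SE 0.19), whose sequence is close enough that signals may be shared. CYP1B1, which hydroxylates estradiol, fell 2.68-fold (from 10.12 ± 0.0311 to 8.69 ± 0.135). Among 10 aldo-keto reductases AKR1C2 (1.27, SE 0.21), which reduces dihydrotestosterone, and the steroid 5-beta-reductase AKR1D1 (1.11, SE 0.09) rose past 2-fold. No member was past 2-fold with 64 added or without the dimmest 25% of probe sets. Over the settings the changes ran from 0.68 to 1.89 for AKR1C2 and from 0.50 to 1.985 for AKR1D1. AKR1C1, nearly identical to AKR1C2, changed by 0.42, and that call was lost without vehicle replicate 2 or 3 or progestin replicate 1. CA8, a carbonic anhydrase relative without catalytic activity, fell 4.88-fold (from 10.38 ± 0.0985 to 8.10 ± 0.0824).

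Iron and heme genes rose more often than they fell, 14 of 38 (36.8%) against 6 (15.8%), with a median of 0.13. The STEAP family, whose metalloreductases reduce iron and copper so that they can cross a membrane, led the list. STEAP2 was at 7.06, 7.13 and 6.98 with vehicle and 9.66, 9.64 and 9.74 with progestin (6.18-fold, limma adjusted p = 8.72e-10). STEAP1 rose 6.7-fold (from 5.06 ± 0.149 to 7.80 ± 0.126), and STEAP4 2.88-fold (from 5.60 ± 0.247 to 7.12 ± 0.0229). LCN2, a secreted protein that binds iron-carrying siderophores, rose 3.04-fold, but its vehicle arrays lay at 5.38, 6.69 and 5.2, with replicate 2 apart. Antioxidant genes past 2-fold were SELENOP, the secreted selenium carrier (1.60, SE 0.10), and SOD3, the extracellular superoxide dismutase (1.55, SE 0.09). PDK4, which shuts pyruvate out of the mitochondrial cycle, rose 3.17-fold (from 6.04 ± 0.23 to 7.71 ± 0.0846), and its relative PDK3 fell 2.39-fold (from 8.88 ± 0.0277 to 7.62 ± 0.0253). Of the 37 genes of the tricarboxylic acid cycle and pyruvate entry 11 fell (29.7%) and 5 rose, 3 without vehicle replicate 3 and without progestin replicate 3.

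Enzymes that build nucleotides fell together: 16 of 38 purine and pyrimidine genes fell (42.1%, against 16.1% of all genes) and 3 rose, with a median of -0.15 and a range of -0.26 to -0.13 over the settings. PAICS, an enzyme of purine synthesis, was at 10.01, 10.02 and 9.98 with vehicle and 9.16, 9.03 and 9.04 with progestin (1.9-fold), and PNP, a purine salvage enzyme, fell similarly (-0.98, SE 0.08). AK4, a mitochondrial adenylate kinase, rose (0.96, SE 0.08). Of 18 genes of polyamine synthesis and transport 6 fell (33.3%, against 16.1% of all genes) and 3 rose, with a median of -0.02. The only one past 2-fold was SAT1, which acetylates spermidine for export and rose 2.1-fold (from 10.38 ± 0.039 to 11.45 ± 0.0535).

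Genes that process and export RNA fell most broadly. Of 65 splicing factors 42 fell (64.6%, against 16.1% of all genes) and 1 rose, with a median of -0.33, and only 9 of the 65 changes were above 0. Of 45 nucleoporins and karyopherins, the proteins of the nuclear pore and its transport receptors, 28 fell (62.2%) and 1 rose, with a median of -0.41 and 3 changes above 0. No member of either family reached 2-fold. The medians lay between -0.34 and -0.27 and between -0.49 and -0.37 over all settings. SNRPF, a core protein of the spliceosomal snRNPs, was at 8.75, 8.80 and 8.67 with vehicle and 7.79, 7.86 and 7.64 with progestin (1.97-fold). PRPF3 (-0.89, SE 0.08) and SF3B3 (-0.79, SE 0.08), further spliceosome components, fell similarly. KPNA2, an importin, was at 12.52, 12.47 and 12.54 with vehicle and 11.56, 11.53 and 11.54 with progestin (1.95-fold), and the pore proteins NUP205 (-0.89, SE 0.07) and NUP155 (-0.88, SE 0.08) fell by nearly as much. None of these genes had overlapping groups.

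The machinery of translation fell less. Of 111 ribosome biogenesis genes 37 fell (33.3%) and 6 rose, with a median of -0.17; without vehicle replicate 1, 24 fell. LYAR, a nucleolar protein, fell (-1.13, SE 0.12), and RCL1, a factor for the small subunit, rose against the trend (1.34, SE 0.09). Of 56 translation factors and their regulators 22 fell (39.3%) and 2 rose, with a median of -0.19. That count depended on single arrays: 13 fell without vehicle replicate 1, 12 without vehicle replicate 2 and 14 without progestin replicate 2. EIF4B, an initiation factor, fell (-0.51, SE 0.07), and so did EIF4EBP2, a repressor of initiation (-0.67, SE 0.08). Of 35 aminoacyl-tRNA synthetases 9 fell, 14 with a variance trend, with SARS2 (-0.56, SE 0.08) and QARS1 (-0.49, SE 0.08) lowest. The DEAD-box helicases were mixed, with 15 of 50 that fell (30.0%) and 6 that rose. DDX39A, an mRNA export helicase, fell 2.44-fold (from 10.17 ± 0.115 to 8.88 ± 0.0909), whereas DDX60 (3.66, SE 0.14), DDX60L (3.32, SE 0.11) and DHX58 (2.25, SE 0.12), all interferon-induced sensors of foreign RNA, had the largest rises.

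The family medians were also taken on each array. Over the 65 splicing factors the median difference from the vehicle mean was 0.02, 0.02 and -0.04 on the vehicle arrays and -0.29, -0.36 and -0.35 on the progestin arrays. For nucleoporins and karyopherins it was 0.02, 0.06 and -0.09 with vehicle and -0.36, -0.53 and -0.40 with progestin. For lysosomal proteins it was 0.04, 0.06 and -0.10 with vehicle and 0.21, 0.14 and 0.24 with progestin. Vehicle replicate 3 was the lowest of its group in all these families, also for ribosome biogenesis, where it lay at -0.13, close to the progestin arrays at -0.15, -0.23 and -0.11. The arrays with doxycycline lay at -0.34, -0.21 and -0.28 for splicing factors and at 0.17, 0.29 and 0.26 for lysosomal proteins.

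**Figure D4:**
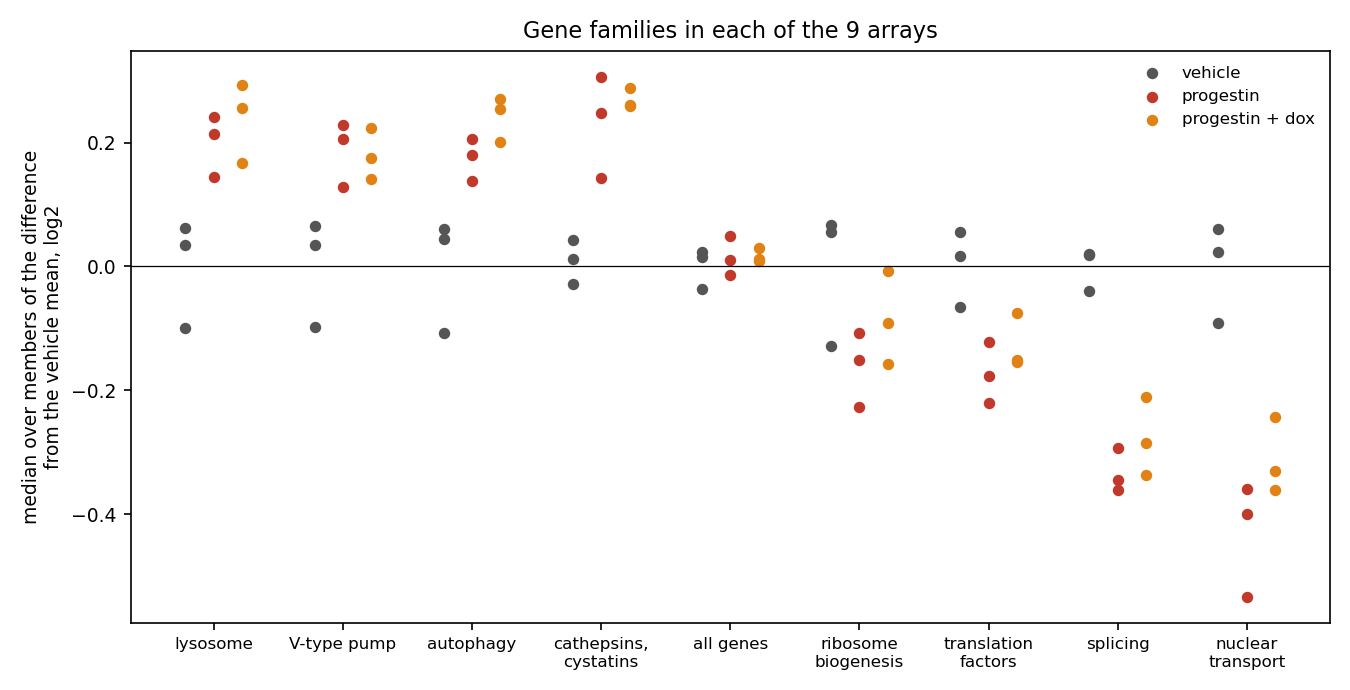
For 8 families and all genes (horizontal axis), each point is 1 array: the median over the members of the difference from the vehicle mean (vertical axis, log2), in grey for vehicle, red for progestin and orange for progestin with doxycycline. The red points of splicing and nuclear transport lie below every grey point and those of the lysosome above; for ribosome biogenesis 1 grey point lies at -0.13 among the red ones.

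Protein turnover shifted in composition. FBXO32, the atrogin ubiquitin ligase subunit known from muscle wasting, was at 7.29, 7.30 and 6.98 with vehicle and 10.96, 10.84 and 11.10 with progestin (13.7-fold, limma adjusted p = 7.56e-10). Of 56 F-box proteins 15 rose (26.8%) and 5 fell, 3 without vehicle replicate 1 or 2 or progestin replicate 1. FBXO5, an inhibitor of the anaphase-promoting complex, fell (-1.45, SE 0.07). The RING ligases RNF144B (1.29, SE 0.10) and RNF145 (1.15, SE 0.11) rose, as 17 of 75 RNF genes did, and 8 fell. Among 24 ubiquitin-conjugating enzymes UBE2L6 rose (1.48, SE 0.08), the interferon-induced enzyme of ISG15 conjugation. UBE2S (-1.48, SE 0.08), UBE2C (-1.38, SE 0.08) and UBE2T (-1.12, SE 0.11), enzymes of mitosis and DNA repair, fell past 2-fold. USP13, a deubiquitinase, fell (-1.27, SE 0.11). Of 45 proteasome genes 15 fell and 3 rose, with a median of -0.13; between 7 and 9 fell without vehicle replicate 1, vehicle replicate 2, progestin replicate 1 or progestin replicate 2. PSMB8, the interferon-inducible catalytic subunit, rose (1.0, SE 0.11). Of 76 chaperones 21 fell and 14 rose, 9 without progestin replicate 3. DNAJC5B, a relative of the synaptic vesicle chaperone, fell 5.91-fold (from 7.37 ± 0.132 to 4.81 ± 0.31), and DNAJC12 (1.43, SE 0.15) and DNAJB2 (1.12, SE 0.09) rose.

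Among transcription factors the largest changes were those of single genes. ZBTB16, a zinc finger repressor known to be induced by glucocorticoids and progestins, was at 5.40, 6.18 and 6.21 with vehicle and 8.48, 8.25 and 8.36 with progestin (5.4-fold). EPAS1, the hypoxia-inducible factor HIF-2 alpha, went from 8.59, 8.60 and 8.44 to 10.59, 10.51 and 10.68 (4.15-fold). HES1, a Notch target (1.25, SE 0.12), and ID3, which blocks helix-loop-helix factors (1.21, SE 0.09), rose, while HEY2 of the same family fell. The epithelial factor SOX9 rose 2.56-fold (from 8.04 ± 0.187 to 9.40 ± 0.0108), CEBPD rose (1.09, SE 0.10), and ZFHX3, a large homeobox factor, rose (1.18, SE 0.11). FOXM1, a forkhead factor of dividing cells, fell 2.63-fold (from 10.93 ± 0.0366 to 9.53 ± 0.0796). The LIM proteins FHL2 (-1.44, SE 0.11) and LMO4 (-1.36, SE 0.12), both transcriptional cofactors, fell. The large family of ZNF genes split evenly: 50 of 464 rose (10.8%) and 53 fell (11.4%), with ZNF652 (1.46, SE 0.08) highest and ZNF367 (-1.24, SE 0.08) lowest; 33 rose without progestin replicate 1, and 32 and 35 fell without vehicle replicates 1 and 2.

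Of the chromatin families, Polycomb proteins, remodellers and histone lysine enzymes held more members that fell than rose, and histone deacetylases and acetyltransferases as many of each. Of 23 Polycomb proteins 9 fell (39.1%) and 3 rose, and SCML2, a Polycomb component, fell 3.36-fold (from 9.08 ± 0.0397 to 7.33 ± 0.06). Of 35 SWI/SNF and CHD remodelling proteins 11 fell (31.4%) and 2 rose; SMARCA1 fell 2.95-fold (from 10.65 ± 0.0819 to 9.09 ± 0.0394), and CHD5 rose (1.17, SE 0.15). Of 70 histone lysine methyltransferases and demethylases 18 fell (25.7%) and 8 rose, 5 without vehicle replicate 1 or progestin replicate 1. SUV39H1 (-1.03, SE 0.10) and SUV39H2 (-1.01, SE 0.10), which write the histone H3 lysine 9 mark of heterochromatin, fell, and KDM4B, which removes that mark, rose (1.06, SE 0.09). Of 27 histone deacetylases and acetyltransferases 6 rose and 6 fell (22.2% each), none by 2-fold. HDAC8 rose (0.60, SE 0.08), and HDAC1 (-0.53, SE 0.08) and HDAC2 (-0.51, SE 0.08), the catalytic subunits of corepressor complexes, fell.

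The promoters of the genes changed at least 2-fold were searched in the same window. The palindrome GNACANNNTGTNC, an element of progesterone and glucocorticoid receptors, was found in 51 of all 14239 genes (0.358%), in none of 313 genes that rose at least 2-fold and in 1 of 335 that fell, EPHA4. The window holds only the 250 bases before the start, and the receptors are known to bind mostly further away. The cAMP response element TGACGTCA was found in 403 of all genes (2.83%), in 8 of the 313 that rose (2.56%) and in 21 of the 335 that fell (6.27%). Most of the 21 are histone genes or genes of DNA replication, DNA repair and cell division, UBE2S among them. The histone genes H2AC14 and H2BC14 share a single match (chr6:27814883-27814970), read from opposite strands, and both are counted. The others include SUV39H2, the matrix protein FN1 (-1.34, SE 0.10) and the adhesion proteins NRCAM (-2.03, SE 0.11) and CLSTN2 (-1.33, SE 0.12). Shown are the stretch of EPHA4, those of DUSP1 and PTPRU as genes that rose, and those of UBE2S, SUV39H2 and FN1 as genes that fell; capitals mark the receptor element in EPHA4 and the cAMP response element in the others.
EPHA4 (chr2:221574206-221574298, minus strand): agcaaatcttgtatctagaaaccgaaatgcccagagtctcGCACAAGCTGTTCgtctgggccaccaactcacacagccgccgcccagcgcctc
DUSP1 (chr5:172771273-172771360, minus strand): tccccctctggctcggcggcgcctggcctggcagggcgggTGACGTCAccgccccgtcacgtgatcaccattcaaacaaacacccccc
PTPRU (chr1:29236434-29236521, plus strand): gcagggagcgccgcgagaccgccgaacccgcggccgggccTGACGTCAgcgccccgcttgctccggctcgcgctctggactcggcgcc
UBE2S (chr19:55407829-55407916, minus strand): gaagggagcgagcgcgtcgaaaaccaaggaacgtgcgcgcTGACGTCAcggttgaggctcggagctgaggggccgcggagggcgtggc
SUV39H2 (chr10:14878710-14878797, plus strand): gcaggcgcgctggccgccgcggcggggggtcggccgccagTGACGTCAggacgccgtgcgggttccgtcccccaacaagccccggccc
FN1 (chr2:215436204-215436291, minus strand): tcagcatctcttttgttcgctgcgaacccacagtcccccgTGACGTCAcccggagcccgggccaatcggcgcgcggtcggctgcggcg
The E-box was found in 30 of the 313 genes that rose (9.58%) and 36 of the 335 that fell (10.7%), close to its share of 9.80% over all genes. The estrogen receptor element GGTCANNNTGACC was found in 3 of all genes and in none of those that changed at least 2-fold.

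Tubulins, the subunits of microtubules, fell more often than they rose. Of 26 tubulins 10 fell (38.5%) and 2 rose, with a median of -0.20. TUBB4B was at 12.27, 12.27 and 12.27 with vehicle and 11.43, 11.47 and 11.41 with progestin (1.78-fold), and TUBA1C (-0.69, SE 0.07) and TUBA1B (-0.63, SE 0.07) fell as well; alpha-tubulin genes are close in sequence, so part of that signal may be shared. Of 65 dyneins and intraflagellar transport proteins 8 rose, 5 without progestin replicate 1, and 3 fell, 7 without vehicle replicate 3 and 5 without progestin replicate 3. DNAH5, a heavy chain of motile cilia, rose from 5.11, 4.90 and 4.71 to 7.36, 7.19 and 7.30, and BBS1, of the ciliary BBSome, rose (1.02, SE 0.13). MYO10, the myosin of filopodia, rose (1.14, SE 0.09), and TPM1, a tropomyosin, rose (1.01, SE 0.09). SEPTIN10 fell (-0.89, SE 0.12).

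Other groups had no member past 2-fold. None of 14 peroxins, which assemble the peroxisome, rose or fell in limma, also at an unadjusted p under 0.05; the smallest adjusted p belonged to PEX11G, PEX26 and PEX16, with changes of 0.18, 0.19 and 0.16. Of 10 sulfotransferases 2 rose, 1 without any 1 of the vehicle or progestin arrays, with SULT1A1 highest (0.58, SE 0.07). Of the 27 HOX genes 4 rose, 8 without vehicle replicate 3, and 1 fell, with HOXB2 (0.73, SE 0.08) highest and HOXC5 (-0.77, SE 0.11) lowest. Of 23 regulators of G protein signalling 2 rose and 4 fell (17.4%), among them RGS14 (-0.49, SE 0.07) and RGS10 (-0.48, SE 0.08). Of 28 Mediator subunits 6 fell (21.4%), 3 without vehicle replicate 2 or progestin replicate 2, with MED14 (-0.47, SE 0.08) and MED28 (-0.50, SE 0.08) among them. Of 28 tetraspanins 6 rose (21.4%, against 14.4% of all genes) and 3 fell (10.7%). TSPAN31 (0.61, SE 0.09) and CD9 (0.53, SE 0.08) were among those that rose, and TSPAN12 fell (-0.81, SE 0.10).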

How the data were processed

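RNA from T47D cells was measured on Affymetrix HuGene 1.0 ST arrays. The authors deposited log2 values, 1 for each probe set on each array; that they are log2 was read from the values. Limma, PLIER, Affymetrix Expression Console and Affymetrix Power Tools are named in the submitters' processing notes, without roles; how the arrays were normalized was not given in the sources used here. Of 33297 probe sets, 21214 had a gene symbol in the platform annotation and were tested. Of these, 19460 had 1 symbol, which named 18417 genes; 1754 had several and were not named. For 769 genes the brightest of several probe sets was used.

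Because 14 to 97 values per array lay below 0, 16 was added to the linear values. The test was limma 3.58.1 in R 4.3.3 (lmFit, eBayes) with 1 mean per group over 9 arrays and Benjamini-Hochberg adjustment over 21214 probe sets. The number of arrays limits the precision: an exact permutation test of 3 against 3 cannot go below 0.1. The scripts were tested on simulated data.

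Named were ELF5, PGR, the 20 highest and 20 lowest changes without overlap of groups, and in each family up to 5 members each way that changed at least 2-fold, or else those with the smallest p. Genes beside these were chosen after their values were seen: AQP11, SLC2A3, CYP4Z2P, AKR1C1, CTSA, CTSD, SUMF1, ATP6V1G1, GNPTG, NAGPA, CLN3, FN1, NRCAM, CLSTN2 and the markers. Families were defined by symbol patterns or lists; 1 of them is not reported here. Patterns that took in unrelated genes were corrected after values were seen. Members and lists were chosen with earlier results of these data known. The replicate numbers did not pair the arrays.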

Additional observations from a re-analysis of the deposited data

Results flagged for a closer look

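The 12083 probe sets with no symbol had a median level of 5.46, against 7.38 for those with a symbol. When all were fitted together, 37 of them were at least 2-fold higher and 47 lower with progestin, 0.695% against 4.22% of the named ones. These probe sets stood outside the family comparisons and were examined for that reason; they were not named here.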

How the results depend on the processing

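The count of probe sets changed was 6453 and stayed within 1.5 times of that under all settings but one. With array weights it was 9962, of which 4988 were higher. The cause was not tested. With single arrays left out, between 5123 (without vehicle replicate 1) and 6543 (without vehicle replicate 3) changed, between 2302 and 2950 were higher, and between 2641 and 3593 were lower. At least 2-fold were 893 to 921, with 400 to 468 higher and 439 to 510 lower. On the deposited scale with nothing added, 547 were at least 2-fold higher and 584 lower, and with 64 added 298 and 321. Of 309 named gene results, 12 lost their call under some setting, among them ELOVL2-AS1, MMP17, SEPTIN3, SULT1B1, NAGPA, CLN3, GNPTG, AKR1C1 and SLC2A3, and none reversed. Of 388 family counts 198 moved by more than 1.5 times under some setting.

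With the replicate number as a block, 5976 probe sets changed, 2765 of them higher, and 437 and 460 were at least 2-fold higher and lower. Deviations of arrays with the same number correlated between -0.24 and 0.36, so the numbers were not taken to pair the arrays.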

Other observations

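Non-coding genes moved less often than the 30.5% of all genes, but many were dim. A mean level above 6 was found for 179 of 387 long intergenic and antisense RNAs, 63 of 189 microRNA loci and 85 of 192 small nucleolar RNAs. Over all genes it was found for 13902 of 18417. Changes of dim genes are understated on this scale, and the shares were not compared at equal level. Of 387 long intergenic and antisense RNAs, 30 rose and 13 fell. KRTAP5-AS1 rose (1.86, SE 0.09). GATA3-AS1, the antisense partner of the luminal factor GATA3, fell (-1.05, SE 0.09), as did GATA3 itself (-0.50, SE 0.08); whether the probes of the pair overlap was not examined. TENM3-AS1 (-1.35, SE 0.12) and ARRDC1-AS1 (-1.18, SE 0.11) fell too. ELOVL2-AS1 fell together with ELOVL2, from 6.15, 6.02 and 5.79 to 4.24, 4.36 and 4.00, where the progestin arrays lay at the floor of the scale; its call was lost on the deposited scale with nothing added. Without the dimmest 25% of probe sets 8 fell.

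Of 189 microRNA loci 12 rose and 4 fell, none by 2-fold, and without progestin replicate 1 these counts were 6 and 7. Without progestin replicate 2, 9 fell. MIR154 rose (0.84, SE 0.12), as did MIR204 (0.48, SE 0.10), and MIR17HG, the host of a microRNA cluster that promotes division, fell (-0.67, SE 0.16). The arrays measure precursors and hosts at these loci, not mature microRNAs. Of 192 small nucleolar RNAs 14 rose and 18 fell, none by 2-fold; without vehicle replicate 1 the counts were 7 and 9, and 8 and 9 rose without vehicle replicate 2 and progestin replicate 2. SNORD13 rose (0.62, SE 0.10) and SNORA10 fell (-0.65, SE 0.11).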
